A study of Homo sapiens with 6 samples.

Results

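The enzymes that detoxify drugs and other foreign compounds, and the nuclear and cytosolic receptors that switch them on, were followed as a group of 41 genes in HepG2 cells carrying either of 2 forms of the transcription factor VEZF1. The genes were taken from a fixed list by symbol, and all 41 were present among the 59608 genes of the count table. They comprise 3 receptors (AHR, NR1I2 and NR1I3), the electron donor POR, 22 cytochrome P450s of families 1 to 4, the epoxide hydrolase EPHX1, 5 UDP-glucuronosyltransferases (UGTs), 6 glutathione S-transferases (GSTs) and 3 sulfotransferases (SULTs).

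In liver, P450s oxidise lipophilic compounds with electrons handed on by POR, and UGTs, GSTs and SULTs then attach a glucuronate, glutathione or sulfate group that makes the product easier to excrete. AHR, the pregnane X receptor PXR (encoded by NR1I2) and the constitutive androstane receptor CAR (encoded by NR1I3) sense foreign compounds and induce many of these enzymes, with CYP1A1 the classic target of AHR and CYP3A4 that of PXR. HepG2, an established line from a human liver cancer, is known to keep phase II conjugation better than P450 activity.

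In all 6 libraries endogenous VEZF1 had been targeted with a lentiviral sgRNA in HepG2 cells, after which wild-type VEZF1 (VEZF1 WT) was re-expressed for 3 libraries and VEZF1 2A for the other 3. In VEZF1 2A the serines S123 and S124, which carry O-linked N-acetylglucosamine, are replaced by alanine. The comparison therefore addresses whether the sugar on VEZF1 changes the RNA of these genes. Cells without re-expressed VEZF1 were not analysed here, nothing in the labels tells whether replicates came from separate cultures, and p-values then measure only the spread between these libraries, which may be technical. The VEZF1 WT libraries held 47414775, 35272710 and 57199396 counts and the VEZF1 2A libraries 28756765, 39565464 and 33966492 (replicates 1, 2 and 3, the order used for every list of values that follows). The largest library was 1.99 times the smallest. VEZF1 itself, on chromosome 17, was read at 59.2, 45.5 and 39.9 counts per 1000000 counts (CPM, scaled by edgeR's TMM factors) in VEZF1 WT and at 46.1, 48.5 and 38.8 in VEZF1 2A. The groups overlapped, and reads of the re-expressed and the targeted gene cannot be told apart in these counts.

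None of the drug metabolism genes that could be tested passed the test between the VEZF1 forms. Of the 41 genes, 30 had enough counts for the edgeR quasi-likelihood test and 0 of these 30 reached an unadjusted p under 0.05 in either direction, against 408 of the 19111 genes tested (2.13%), of which 159 (0.832%) were higher and 249 (1.3%) lower in VEZF1 WT. After Benjamini-Hochberg adjustment edgeR called 0 of 19111 genes (0%), with a smallest adjusted p of 0.9996, while DESeq2 called 3 genes, none of them a drug metabolism gene. The log2 fold change of VEZF1 WT over VEZF1 2A was above 0 in 9 and below 0 in 21 of the 30 genes. Over all genes tested it was above 0 in 9573 and below 0 in 9538. The median was -0.07 for the 30 genes against 0.00 for all genes tested. The median of the drug metabolism genes was -0.0097 over the 16 that remained when genes overlapping others were left out. It was -0.014 without VEZF1 2A replicate 2, -0.15 without VEZF1 2A replicate 3 and -0.12 without VEZF1 WT replicate 3. Without both replicate 3 libraries, an alternative chosen after seeing the data, it was -0.18. Over the 30 genes the log2 fold change ran from -0.61 for UGT1A6 to 0.37 for CYP2R1. In each of the 30 genes the difference of the group means was smaller than the range within the wider group, which held for 96.5% of all genes tested. It was smaller than the larger of the group SDs in 27 of the 30 genes (90%), the exceptions being NR1I2, CYP2U1 and CYP4V2, and in 83.3% of all genes. The groups did not overlap in 2 of the 30 genes (CYP2U1 and CYP4V2, both lower in VEZF1 WT) and in 7.36% of all genes (3.86% with VEZF1 WT lower), and an exact two-sided permutation test of 3 libraries against 3 cannot give a p below 0.1.

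**Figure D1:**
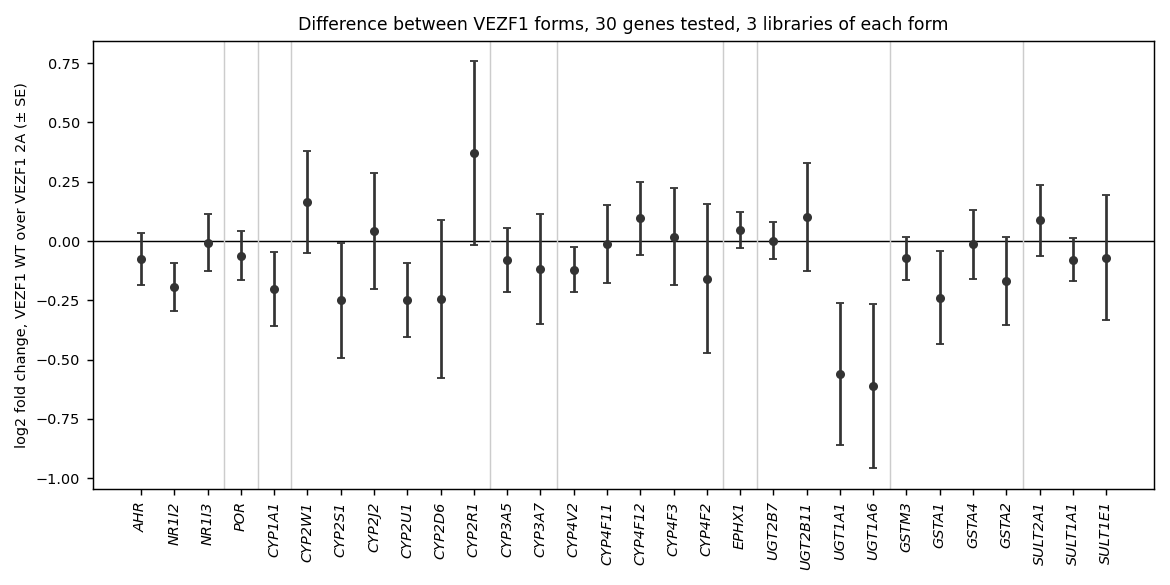
Log2 fold change of VEZF1 WT over VEZF1 2A (y axis) for the 30 drug metabolism genes tested (x axis, ordered by role and then by level, with grey lines between roles), from 3 libraries of each form; points are edgeR estimates and bars 1 standard error. Most points lie within 0.25 of 0, and UGT1A1 (-0.56) and UGT1A6 (-0.61) stand lowest with standard errors of 0.30 and 0.35.

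The genes spanned more than 4 orders of magnitude in level. As CPM per kilobase of exon (a level that corrects for gene length), averaged over 6 libraries, 19 of 41 genes were above 1 and 12 were below 0.1. The most abundant per length was SULT2A1 at 38.7 ± 6.68 (SD, n = 6), followed by EPHX1 at 17.3 ± 1.13, POR at 14.7 ± 1.66, UGT2B7 at 9.49 ± 0.507, GSTM3 at 7.68 ± 0.683 and GSTA1 at 7.60 ± 1.90. GSTM3 and GSTA1 lay within their spread of each other, as did EPHX1 and POR at about 1 SD on each side. Conjugating enzymes held 4 of the first 6 places, and no P450 did. Of the 22 P450s, CYP2W1 (rank 9 of 41) was the highest per length at 3.06 ± 0.773. This rank depends on the exon length used, which was 2791 bases for CYP2W1, 9817 for CYP3A5 and 9767 for CYP4V2. By mean CPM with no length, CYP3A5 (18.7) and CYP4V2 (11.8) stood above CYP2W1 (8.53). Together the 41 genes took 0.0432%, 0.0437% and 0.0470% of all counts in VEZF1 WT against 0.0430%, 0.0510% and 0.0441% in VEZF1 2A, so that the groups overlapped here too. In bulk RNA, fewer cells expressing a gene and less RNA per cell cannot be told apart.

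**Figure D2:**
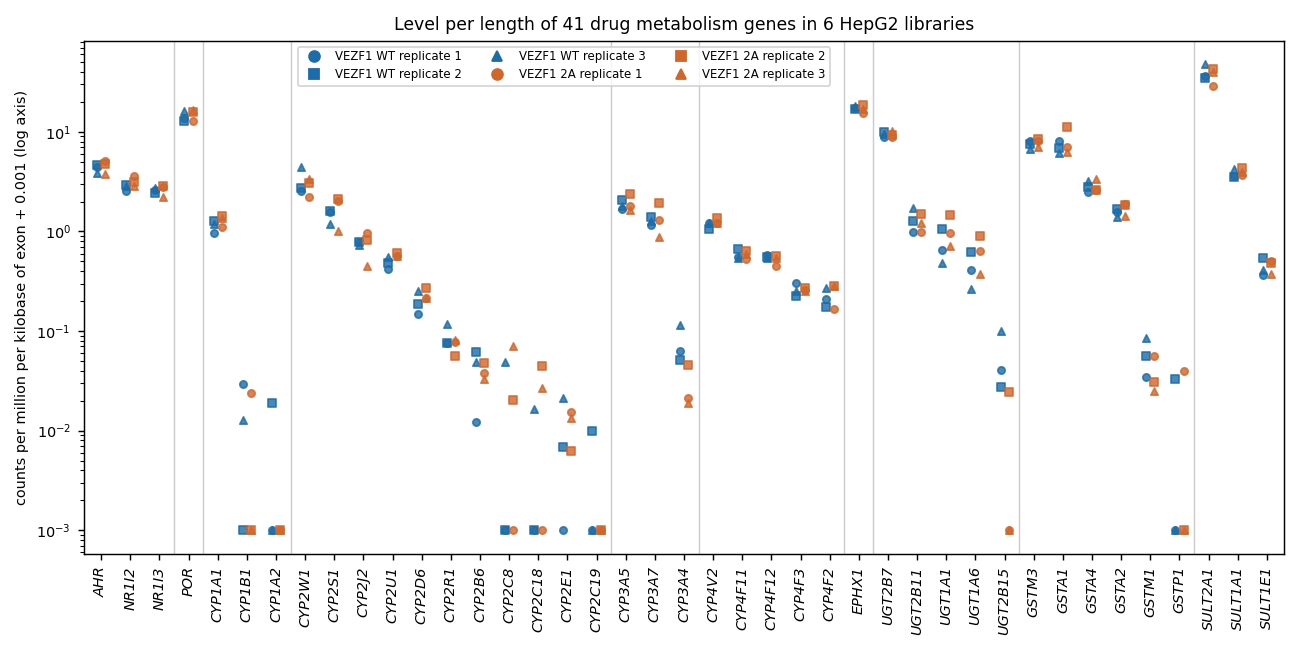
Level of each of the 41 genes (x axis, grouped by role with grey lines between roles) in CPM per kilobase of exon plus 0.001 on a log axis, 1 point per library, blue for VEZF1 WT and orange for VEZF1 2A, the marker giving the replicate. SULT2A1 is highest at a mean of 38.7, 12 genes average below 0.1, and libraries at 0 counts are drawn at 0.001.

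All 3 receptors were expressed and their levels overlapped between both forms. AHR, the ligand-activated partner of ARNT that drives CYP1 genes, was read at 35.5, 37.2 and 31.2 CPM in VEZF1 WT and at 41.03, 38.1 and 30.2 CPM in VEZF1 2A. Both replicate 3 libraries were the lowest, 1 in each group, so the groups overlapped, with a log2 fold change of -0.07 ± 0.11 (SE) and a 95% interval of -0.32 to 0.17 (edgeR p = 0.510, exact permutation p = 0.7). NR1I2 was read at 13.8, 15.8 and 15.4 CPM in VEZF1 WT and at 19.3, 16.7 and 15.3 CPM in VEZF1 2A. The VEZF1 2A library of replicate 1 was the highest and that of replicate 3 fell inside the VEZF1 WT range, and the log2 fold change of -0.19 ± 0.10 had the smallest p of all 30 genes (edgeR p = 0.0843, adjusted p = 0.9996, exact permutation p = 0.3). NR1I3, read at 8.55, 7.91 and 8.86 CPM against 9.02, 9.31 and 7.14 CPM, had a log2 fold change of -0.01 ± 0.12 (edgeR p = 0.954, exact permutation p = 1), with VEZF1 2A holding both the highest and the lowest library. Per length the order was AHR at 4.41 ± 0.519, NR1I2 at 2.98 ± 0.348 and NR1I3 at 2.61 ± 0.248, of which the last pair overlapped within their spread. Of the exon length counted for AHR, 35.2% overlapped AC019117.3 or AC073332.1, and 20.4% of that of NR1I3 overlapped TOMM40L, so part of these counts may belong to neighbours.

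The stretches ahead of the start site of AHR, CYP1A1 and CYP2W1 are shown because AHR and CYP2W1 are the only genes, among the 35 of the group with a RefSeq window, whose start is preceded by a run of 7 G, the kind of sequence VEZF1 is known to bind, and because CYP1A1 and CYP2W1 hold the core letters of the AHR response element. The sequences are the 250 bases before the RefSeq start on build GRCh38.p14, 5′ to 3′ on the strand of the gene: chr7:17298402-17298651 on the plus strand for AHR, chr15:74725529-74725778 on the minus strand for CYP1A1 and chr7:982931-983180 on the plus strand for CYP2W1. Capitals mark GGGGGGG and GCGTG or, where they lie on the other strand, CCCCCCC and CACGC.
AHR: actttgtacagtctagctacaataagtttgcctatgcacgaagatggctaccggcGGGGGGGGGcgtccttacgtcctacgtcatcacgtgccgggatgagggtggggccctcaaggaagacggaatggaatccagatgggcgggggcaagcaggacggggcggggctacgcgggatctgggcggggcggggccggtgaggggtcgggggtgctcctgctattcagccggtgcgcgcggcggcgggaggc
CYP1A1: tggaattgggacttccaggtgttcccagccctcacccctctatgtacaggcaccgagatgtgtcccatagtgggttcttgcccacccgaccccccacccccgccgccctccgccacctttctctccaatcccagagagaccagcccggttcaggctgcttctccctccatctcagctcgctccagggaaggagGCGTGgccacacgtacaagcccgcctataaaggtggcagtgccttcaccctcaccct
CYP2W1: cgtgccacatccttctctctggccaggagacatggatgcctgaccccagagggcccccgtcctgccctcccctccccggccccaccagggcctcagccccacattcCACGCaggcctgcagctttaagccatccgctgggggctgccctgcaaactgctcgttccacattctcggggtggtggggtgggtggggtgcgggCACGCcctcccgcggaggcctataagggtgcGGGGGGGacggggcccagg
The run of 9 G ahead of AHR gives 3 overlapping matches, CYP1A1 holds 1 GCGTG, and CYP2W1 holds 2 on the other strand and 1 run of G. Over both strands, the 7 G occur in 4.87% of 35116 RefSeq windows of this length. Of the 35 genes with a window, 2 hold the 7 G in at least 1 window (5.71%). GCGTG occurs in 32.2% of all windows and in at least 1 window of 6 of the 35 genes (17.1%). The 6 are CYP1A1, CYP2J2, CYP2W1, EPHX1, GSTM3 and UGT1A6. Some genes of the group have more than 1 window, so shares of genes and shares of windows are not directly comparable. A match describes letters in the window and is neither a bound site nor a cause. AHR and CYP2W1 had log2 fold changes of -0.07 and 0.17, each within its spread.

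The electron donor POR, on chromosome 7, on which all microsomal P450s depend, was read at 83.9, 78.6 and 98.9 CPM in VEZF1 WT and at 78.3, 94.7 and 100.02 CPM in VEZF1 2A. The low and the high libraries were split over both groups (log2 fold change -0.06 ± 0.10, edgeR p = 0.560, exact permutation p = 0.8). Of 17 other electron donors and enzymes of heme supply, 17 were tested and 0 reached p under 0.05 in edgeR's test, with a median log2 fold change of 0.02. Per length the most abundant of them was CYB5B, a cytochrome b5, at 49.6 ± 3.52.

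Among the family 1 P450s, which oxidise polycyclic aromatic hydrocarbons and are induced through AHR, CYP1A1 alone was above a few counts. CYP1A1, on chromosome 15, was read at 3.21, 4.26 and 3.99 CPM in VEZF1 WT and at 3.74, 4.77 and 4.61 CPM in VEZF1 2A. The VEZF1 WT range reached into that of VEZF1 2A (log2 fold change -0.20 ± 0.16, edgeR p = 0.221, exact permutation p = 0.3). CYP1A2, the adult liver enzyme that clears caffeine, had 2 counts in 1 library (VEZF1 WT replicate 2) and 0 in the other 5. CYP1B1, a mainly extrahepatic enzyme, had 8, 0 and 4 counts in VEZF1 WT against 4, 0 and 0 in VEZF1 2A. A count of 0 allows up to 3 counts, or between 0.0532 and 0.103 CPM depending on the library, and this limit covers counting error only. It takes single counts as independent, and since low counts in this table were mostly even numbers the true limit may be higher.

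Of 11 family 2 P450s, 6 were tested and 5 had too few counts. CYP2W1, an enzyme known from fetal tissue and tumours more than from adult liver, was read at 7.13, 7.63 and 12.3 CPM in VEZF1 WT and at 6.14, 8.59 and 9.43 CPM in VEZF1 2A. In both groups replicate 3 was the highest library, and the log2 fold change was 0.17 ± 0.21 (edgeR p = 0.457, exact permutation p = 0.7). CYP2S1, an extrahepatic enzyme inducible through AHR, went the other way, with 4.24, 4.32 and 3.24 CPM against 5.45, 5.72 and 2.77 CPM. Here replicate 3 was the lowest in both groups and the range within VEZF1 2A exceeded the difference between groups (log2 fold change -0.25 ± 0.24, edgeR p = 0.326, exact permutation p = 0.6). CYP2J2, an epoxygenase of arachidonic acid, was read at 2.32, 2.33 and 2.16 CPM in VEZF1 WT and at 2.85, 2.45 and 1.33 CPM in VEZF1 2A, so that the VEZF1 WT libraries lay inside the VEZF1 2A range (log2 fold change 0.04 ± 0.25, edgeR p = 0.865, exact permutation p = 1).

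CYP2U1, a fatty acid hydroxylase, was the clearest of the pair whose groups did not overlap, at 2.49, 2.83 and 3.30 CPM in VEZF1 WT against 3.33, 3.62 and 3.31 CPM in VEZF1 2A. The highest VEZF1 WT library lay only just below the lowest VEZF1 2A library, the log2 fold change was -0.25 ± 0.15 with a 95% interval of -0.59 to 0.09 (edgeR p = 0.137), and the exact permutation test gave p = 0.1, the smallest it can give. CYP2D6, known for its polymorphic metabolism of many drugs, and CYP2R1, the 25-hydroxylase of vitamin D, were both low, at 0.213 and 0.0797 CPM per kilobase, with 15 to 34 and 10 to 30 counts per library. Their log2 fold changes of -0.24 ± 0.33 and 0.37 ± 0.39 had 95% intervals of -0.98 to 0.49 and -0.49 to 1.23, which leave room for changes that this depth could not show.

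The other 5 family 2 genes were below the count minimum. CYP2B6, a target of PXR and CAR, had 2, 8 and 10 counts in VEZF1 WT against 4, 7 and 4 in VEZF1 2A. CYP2E1, the ethanol-oxidising P450, had 0, 2 and 11 counts against 4, 2 and 4. CYP2C8, CYP2C18 and CYP2C19 had 15, 8 and 2 counts in all 6 libraries together. Of the exon length of CYP2C18, 40.3% overlapped AL583836.1. Fitted without a count minimum, each of these 5 had an adjusted edgeR p of at least 0.914.

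Family 3 was carried by CYP3A5 and the fetal form CYP3A7, and hardly by CYP3A4, the main drug-oxidising P450 of adult liver. CYP3A5, on chromosome 7, was read at 16.4, 20.5 and 17.8 CPM in VEZF1 WT and at 17.7, 23.6 and 16.2 CPM in VEZF1 2A (log2 fold change -0.08 ± 0.14, edgeR p = 0.568, exact permutation p = 0.9). CYP3A7 was read at 4.09, 4.88 and 4.52 CPM against 4.63, 6.76 and 3.10 CPM (log2 fold change -0.12 ± 0.23, edgeR p = 0.624, exact permutation p = 0.9). In both genes VEZF1 2A replicate 2 was the highest library and replicate 3 the lowest of its group, and the VEZF1 WT libraries lay between them. Of the exon length of CYP3A7, 42.6% was shared with the readthrough gene CYP3A7-CYP3A51P. Per length CYP3A5 stood at 1.90 ± 0.289, CYP3A7 at 1.32 ± 0.341 and CYP3A4 at 0.0516 ± 0.0356.

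CYP3A4 had 10, 6 and 22 counts in VEZF1 WT against 2, 6 and 2 in VEZF1 2A, or 0.211, 0.168 and 0.390 CPM against 0.0686, 0.150 and 0.0603 CPM. The groups did not overlap and VEZF1 WT was higher, by an exact permutation p of 0.1, the smallest possible, but 2 of the VEZF1 2A libraries lay below the limit that a count of 0 allows, and replicate 2 held 6 counts in both groups. The gene did not pass the count minimum. Fitted without any minimum, an alternative that tests 38745 genes, its log2 fold change was 1.44, with an unadjusted edgeR p below 0.05 and an adjusted p of 0.914. UGT2B15, a glucuronosyltransferase of androgens, had 4, 2 and 12 counts in VEZF1 WT against 0, 2 and 0 in VEZF1 2A and an adjusted edgeR p of 0.914 in that fit. Both replicate 2 libraries held 2 counts and lay, like the VEZF1 2A libraries at 0, under the limit that a count of 0 allows.

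All 5 family 4 P450s, which hydroxylate the ends of fatty acids and eicosanoids, were tested. CYP4V2, on chromosome 4, was the highest per length at 1.21 ± 0.0932 and was read at 11.841, 10.376 and 11.770 CPM in VEZF1 WT and at 11.860, 13.253 and 11.843 CPM in VEZF1 2A. Its groups were barely apart, with 4 of the 6 libraries almost level, and the log2 fold change was -0.12 ± 0.10 with a 95% interval of -0.33 to 0.09 (edgeR p = 0.236, exact permutation p = 0.1). CYP4F11, CYP4F12, CYP4F3 (which inactivates leukotriene B4) and CYP4F2 (which acts on vitamins E and K) lay between 0.230 and 0.586 CPM per kilobase. Their log2 fold changes ranged from -0.16 ± 0.32 for CYP4F2 to 0.10 ± 0.15 for CYP4F12, and the groups overlapped in each. The summed CYP4F family of 6 genes was read at 7.53, 7.32 and 7.23 CPM in VEZF1 WT and at 6.34, 7.79 and 7.50 CPM in VEZF1 2A, with VEZF1 WT inside the VEZF1 2A range.

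EPHX1, the microsomal epoxide hydrolase that opens reactive epoxides left by P450s, was among the steadiest genes of the group. It was read at 43.5, 42.9 and 45.6 CPM in VEZF1 WT and at 38.4, 46.5 and 42.8 CPM in VEZF1 2A. The VEZF1 WT libraries lay inside the VEZF1 2A range, and the log2 fold change of 0.05 ± 0.08 had a 95% interval of -0.12 to 0.22 (edgeR p = 0.544, exact permutation p = 0.7).

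The UGTs held both the steadiest gene and the most variable ones. UGT2B7, the enzyme that glucuronidates morphine, was read at 20.2, 22.6 and 21.7 CPM in VEZF1 WT and at 20.2, 21.2 and 22.9 CPM in VEZF1 2A. Its coefficient of variation over 6 libraries, 5.33%, was the lowest of the 30 genes, and the 95% interval of its log2 fold change ran from -0.17 to 0.17 around 0.00. UGT2B11, at 2.30, 2.97 and 4.06 CPM against 2.33, 3.49 and 2.86 CPM, had a log2 fold change of 0.10 ± 0.23 (edgeR p = 0.667, exact permutation p = 0.8), and VEZF1 WT held both its highest and its lowest library.

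UGT1A1, the enzyme that conjugates bilirubin, was read at 2.89, 4.65 and 2.16 CPM in VEZF1 WT and at 4.28, 6.49 and 3.19 CPM in VEZF1 2A. In both groups replicate 2 was the highest and replicate 3 the lowest library. The groups overlapped, and the log2 fold change was -0.56 ± 0.30 with a 95% interval of -1.23 to 0.11 (edgeR p = 0.0907, exact permutation p = 0.3). UGT1A6, which conjugates simple phenols, was read at 2.09, 3.20 and 1.35 CPM against 3.26, 4.67 and 1.93 CPM. It had the same order of libraries within each group, the widest coefficient of variation of the 30 genes (43.7%) and a log2 fold change of -0.61 ± 0.35 (edgeR p = 0.106, exact permutation p = 0.4). The call depended on the libraries: without VEZF1 WT replicate 2 the log2 fold changes were -0.90 for UGT1A1 and -0.95 for UGT1A6, without VEZF1 2A replicate 3 they were -0.78 and -0.89, and without VEZF1 2A replicate 2 only -0.23 and -0.25. In the first and second of these fits both genes had an unadjusted edgeR p under 0.05 and an adjusted p of at least 0.921, while in the last neither did. With all 6 libraries, both genes also passed the unadjusted threshold with no filter on low counts (-0.55 and -0.60) and with a replicate block (-0.53 and -0.57). The smallest adjusted edgeR p of a drug metabolism gene was 0.705 and 0.516 in those fits. Compared within each replicate number, both genes were lower in VEZF1 WT than in VEZF1 2A every time. Whether a replicate number marks a shared culture is not given in the labels.

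The 9 genes of the UGT1A locus on chromosome 2 differ in their first exon and share the rest, and UGT1A5 and UGT1A8 had identical counts in all 6 libraries, 86, 103 and 69 in VEZF1 WT against 90, 162 and 63 in VEZF1 2A. These were also the lowest counts of the 9 genes, so reads on the shared exons appear to have been counted for every gene of the locus, although the counting program is not given. The lowest count made up 62.6% of the counts of UGT1A1 and 90.2% of those of UGT1A6. What was left above it for UGT1A1 was 51, 63 and 53 counts in VEZF1 WT against 35, 98 and 43 in VEZF1 2A, or 1.08, 1.77 and 0.939 CPM against 1.20, 2.45 and 1.30 CPM. On this scale too the groups overlapped, with 1 VEZF1 WT library above 2 of the VEZF1 2A libraries. For UGT1A6 it was 13, 11 and 7 counts against 5, 25 and 1, again with overlapping groups. The sum over the 9 genes, in which such reads would count repeatedly, differed by -0.60 on the log2 scale (exact permutation p = 0.2, adjusted p = 1 over 8 gene families).

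The GSTs conjugate glutathione to electrophiles. GSTA1, the main alpha class enzyme of hepatocytes, was read at 10.2, 8.64 and 7.69 CPM in VEZF1 WT and at 8.88, 14.2 and 8.02 CPM in VEZF1 2A. The VEZF1 2A library of replicate 2 stood above the other 5, and the log2 fold change was -0.24 ± 0.20 (edgeR p = 0.251, exact permutation p = 0.6). GSTM3, a mu class enzyme, was read at 38.9, 35.7 and 32.2 CPM against 38.4, 40.3 and 33.4 CPM, with replicate 3 lowest in both groups (log2 fold change -0.07 ± 0.09, edgeR p = 0.443, exact permutation p = 0.6). GSTA2 and GSTA4, the latter an enzyme for products of lipid peroxidation, had log2 fold changes of -0.17 ± 0.19 and -0.01 ± 0.15. GSTM1, a gene deleted in many people, had 30 counts over all 6 libraries, and 38.3% of its exon length overlapped GSTM2 or AC000032.1. GSTP1, known to be silenced by promoter methylation in liver cancer, had 2 counts in each of 2 libraries and 0 in the other 4. The summed GSTA and GSTM families overlapped between groups, with log2 differences of -0.14 and -0.02 (exact permutation p = 0.4 and 0.8, both adjusted to 1 over 8 families).

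SULT2A1, the sulfotransferase of bile acids and dehydroepiandrosterone, was read at 69.9, 66.4 and 91.5 CPM in VEZF1 WT and at 55.2, 82.2 and 76.9 CPM in VEZF1 2A. The lowest library was VEZF1 2A replicate 1 and the highest VEZF1 WT replicate 3, so that the groups overlapped, although the other VEZF1 WT libraries lay below the other VEZF1 2A libraries (log2 fold change 0.09 ± 0.15, edgeR p = 0.571, exact permutation p = 0.7). SULT1A1, which sulfates phenols such as paracetamol, was read at 32.5, 31.0 and 37.99 CPM against 32.8, 38.8 and 35.6 CPM (log2 fold change -0.08 ± 0.09, edgeR p = 0.403, exact permutation p = 0.5). SULT1E1, the oestrogen sulfotransferase, stood at 0.446 ± 0.073 CPM per kilobase with 26 to 48 counts per library and a log2 fold change of -0.07 ± 0.26. All 3 overlapped between the groups.

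**Figure D3:**
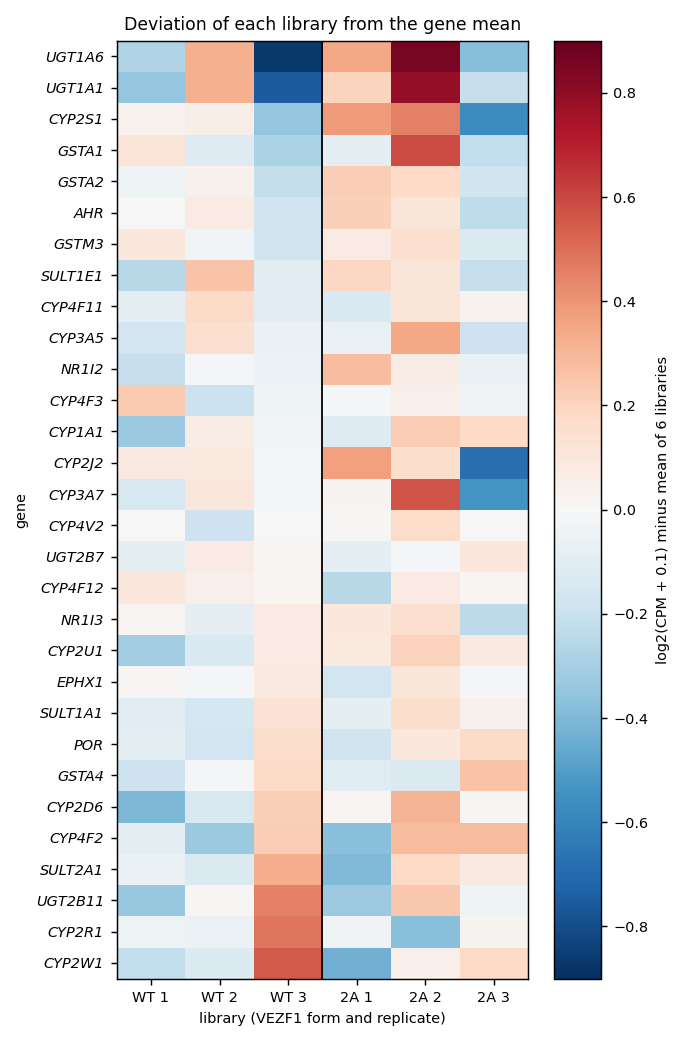
Deviation of each library (x axis, 3 of VEZF1 WT and then 3 of VEZF1 2A) from the gene's mean over 6 libraries, as log2 of CPM plus 0.1, for the 30 genes tested (y axis, ordered by their value in VEZF1 WT replicate 3). Red is above and blue below the mean; the replicate 3 columns of both forms are blue for CYP2S1, UGT1A6 and AHR and red for CYP2W1.

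Both replicate 3 libraries stood together in some genes, at shares not far from those over all genes. Both replicate 3 libraries were the 2 lowest of 6 in 7 of the 30 genes (23.3%, AHR, CYP2J2, CYP2S1, UGT1A6, GSTA1, GSTA2 and GSTM3) and in 15.3% of all genes tested. They were the 2 highest in 4 of 30 (13.3%, POR, CYP2R1, CYP2W1 and GSTA4) and in 15.4% of all genes. Of the hepatoma markers, AFP and FGB, chosen after their values were seen, were highest in both replicate 3 libraries, whereas ALB was highest in VEZF1 2A replicate 2 at 3668 CPM. The fetal liver protein AFP was read at 1926, 2041 and 3640 CPM in VEZF1 WT and at 1761, 2063 and 3479 CPM in VEZF1 2A, and the fibrinogen chain FGB at 460, 420 and 804 CPM against 356, 435 and 734 CPM. The 14 hepatocyte and hepatoma markers summed to 18311, 18210 and 23350 CPM in VEZF1 WT and to 17460, 20946 and 22626 CPM in VEZF1 2A, and their part in the values of the drug metabolism genes was not tested. Without both replicate 3 libraries, an alternative chosen after seeing the data, 4 of the 30 genes had an unadjusted edgeR p under 0.05, all lower in VEZF1 WT, beside 833 of the 19360 genes tested in that fit (4.3% of them, and 2.49% lower in VEZF1 WT). They were CYP2S1 at a log2 fold change of -0.39, NR1I2 at -0.29, UGT1A1 at -0.55 and UGT1A6 at -0.62. The smallest adjusted p of a drug metabolism gene in that fit was 0.990.

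All 14 hepatocyte and hepatoma markers were tested, with APOA2 the most abundant per length at 1390 ± 71.9, whereas 6 of 10 adult hepatocyte markers were tested. Of these HPD, an enzyme of tyrosine breakdown, was the highest (248 to 278 CPM), the urea cycle enzyme CPS1 averaged 15.7 CPM and the alcohol dehydrogenase ADH4 11.5 CPM, and TAT, ARG1 and PCK1 averaged between 0.724 and 3.59 CPM. G6PC, in the table's spelling, was at 0 in all 6 libraries, and CYP2A6 and TDO2 had 10 and 8 counts over all libraries. Of the adult markers, 2 of 6 tested had an unadjusted edgeR p under 0.05, both lower in VEZF1 WT: PCK1, the gluconeogenic kinase, at a log2 fold change of -0.53 (exact permutation p = 0.1) and the urea cycle enzyme ARG1 at -0.97 (exact permutation p = 0.4), the latter through 8.64 CPM in VEZF1 2A replicate 2 against 1.51 to 3.50 CPM in the other 5. Over all genes tested 2.13% passed this threshold, and 1.3% were lower. The 5 blood cell markers summed to between 493 and 663 CPM, nearly all of it LYZ, while HBB was at 0 in every library and PTPRC had 16 counts in all. The 6 fibroblast and stellate markers summed to at most 3.47 CPM, with PDGFRB the most abundant per length and LUM at 0, and the 4 endothelial markers, led by PECAM1, to at most 4.34 CPM. The 5 bile duct markers summed to between 1427 and 1847 CPM, led by KRT19, which ran from 979 to 1397 CPM.

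Among the other genes of these pathways a single one passed the unadjusted threshold. Of 156 further genes in 8 lists, 120 were tested, and 0 were higher and 1 lower in VEZF1 WT at an unadjusted edgeR p under 0.05, with a median log2 fold change of -0.01, against 0.832% higher and 1.3% lower over all genes tested. The lower gene was VDR, the vitamin D receptor, at 0.211, 0.168 and 0.106 CPM in VEZF1 WT against 0.411, 0.399 and 0.482 CPM in VEZF1 2A (log2 fold change -1.42 ± 0.42, edgeR p = 0.00681, adjusted p = 0.9996, exact permutation p = 0.1). All VEZF1 WT libraries lay below all VEZF1 2A libraries, on 66 counts in total. Among the partners of the receptors, ARNT, the dimer partner of AHR, was read at 26.7, 26.0 and 26.1 CPM against 28.4, 27.5 and 24.8 CPM, and the AHR repressor AHRR, itself induced by AHR, at 0.274, 0.252 and 0.266 CPM against 0.686, 0.325 and 0.301 CPM. The AHRR groups did not overlap and rested on 80 counts (log2 fold change -0.69 ± 0.43, edgeR p = 0.1399, exact permutation p = 0.1). Of the 26 partners and regulators tested, 5 did not overlap with VEZF1 WT lower (3.86% of all genes) and 0 with VEZF1 WT higher (3.5%). TIPARP, another target of AHR, had a log2 fold change of -0.01 ± 0.14, and RXRA, the partner of PXR and CAR, one of 0.02 ± 0.12. HSP90AB1, a chaperone of AHR, was the most abundant gene of this list per length.

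Of the other P450s of families 1 to 4, only CYP3A43 of 13 genes had enough counts (0.128 ± 0.0374 CPM per kilobase, log2 fold change 0.34 ± 0.41), and CYP2A13, CYP4B1 and CYP4X1 were at 0 in all libraries. Of 18 other UGTs and genes supplying their cofactor, 13 were tested and 0 reached p under 0.05. Their median log2 fold change of -0.63 was carried by the remaining UGT1A genes, which may hold the same reads, whereas UGDH, which makes UDP-glucuronate and was the most abundant per length at 53.1 ± 3.71, stood at 0.04 ± 0.07. Of 19 other GSTs and enzymes of glutathione synthesis, 15 were tested (median log2 fold change 0.01) with GSTO1 the most abundant per length at 36.3 ± 1.28, and GSTT1 was not analysed here. Of 10 other SULTs and enzymes making the sulfate donor, 8 were tested (median -0.05), led per length by PAPSS1 at 31.2 ± 2.12. None of the genes in these last lists reached an unadjusted edgeR p under 0.05.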

How the data were processed

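The authors deposited 1 table of raw counts, whole-number reads per gene in each of 6 HepG2 libraries (3 VEZF1 WT, 3 VEZF1 2A), with exon positions and length of each gene. RNA was made into libraries with an mRNA kit, and the submitters' processing notes name build GRCh38. The aligner, counting program and strand setting are not given in the sources used here. Gene positions and exon lengths were those given in the count table. Of 59613 lines, 5 broken lines of ANK2 were left out, leaving 59608 genes, 20863 of them at 0 throughout. Among counts of 1 to 10, 81.0% to 83.0% were even numbers, so single counts are not independent molecules.

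Libraries were scaled by TMM in edgeR 4.0.16 (R 4.3.3). Genes with enough counts (filterByExpr, minimum count 10, minimum total 15) were tested with glmQLFit and glmQLFTest, group as the only covariate, two-sided, with Benjamini-Hochberg adjustment over 19111 genes. The biological coefficient of variation was 9.71%. Single genes and summed families were compared by an exact two-sided permutation test of log2(CPM + 0.1). The test was also run on simulated counts. Alternatives were other scalings, filters, DESeq2 1.42.0, limma 3.58.1 voom, a replicate block, each library left out, mitochondrial or overlapping genes left out, and halved counts. Levels are CPM per kilobase of the exon length in the table. All 41 genes are named or counted. From each pathway list the genes at unadjusted p under 0.05 and the most abundant per length are named, and from each marker list the most abundant and those at 0; further genes named from these lists (ARNT, AHRR, TIPARP, RXRA, CPS1, ADH4, TAT, AFP, FGB and genes in the closing paragraphs) were chosen after their values were seen. The genes and lists were chosen with earlier results of these data known. Start-site sequences are from RefSeq (GRCh38.p14), with 35 of 41 genes matched; none was at hand for CYP1B1, SULT1A1, POR, CYP2D6, CYP4F12 and CYP2C18. Plots were made in Python 3.11.15 using matplotlib 3.10.9.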

Additional observations from a re-analysis of the deposited data

How the results depend on the processing

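No drug metabolism gene passed an adjusted p of 0.05 under any alternative run. Genes called at adjusted p under 0.05 numbered 16 with no filter on low counts, 3 with DESeq2, 6 with the replicate block and 4 with both replicate 3 libraries left out (chosen after seeing the data), against 0. Genes at unadjusted p under 0.05 numbered 896 of 38745 tested with no filter and 263 of 14611 with a minimum count of 50. They were 219 of 19111 with DESeq2, 825 of 19111 with the replicate block and 154 of 8547 with overlapping genes left out. With both replicate 3 libraries left out they were 833 of 19360. With 1 library left out they were 292 to 973, of 19329 to 19883 tested, against 408 of 19111 in the main fit. Among the alternatives, the share lower in VEZF1 WT over all genes was computed only without both replicate 3 libraries. For the other alternatives the following counts of drug metabolism genes have no such share beside them. Drug metabolism genes at that threshold were 1 higher (CYP3A4) and 2 lower with no filter, 2 lower with the replicate block, 4 lower with both replicate 3 libraries left out and 0 to 5 lower with 1 library left out. The 5 were AHR, NR1I2, CYP2S1, UGT1A1 and UGT1A6, all without VEZF1 2A replicate 3, where CYP2S1 stood at -0.52. UGT1A1 and UGT1A6 were the 2 lower genes with no filter and with the replicate block (at -0.53 and -0.57; smallest adjusted p of a drug metabolism gene 0.516, and 0.705 with no filter). The cause was not tested. Deviations from the group means correlated over genes at 0.08, 0.15 and 0.38 for the numbers 1, 2 and 3. Both replicate 3 libraries thus varied together. For the other numbers pairing was unclear, since VEZF1 2A replicate 1 correlated more with VEZF1 WT replicate 2 (0.18) than with VEZF1 WT replicate 1. The labels do not say whether a replicate number marks a shared culture.

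The median log2 fold change of -0.07 became -0.18 with both replicate 3 libraries left out and -0.0097 (16 genes) with overlapping genes left out, and lay between -0.15 and -0.01 with 1 library left out. The sign of small differences turned as follows. UGT2B7 stood at -0.0014 with library size alone, -0.00047 with a minimum count of 50, -0.0019 with voom, -0.0014 with mitochondrial genes left out and -0.0018 with counts halved. NR1I3 stood at 0.0071 with no filter, 0.0040 with voom and 0.00020 with the replicate block, and with no filter CYP4F11 and GSTA4 stood at 0.00081 and 0.00022. With both replicate 3 libraries left out CYP2J2, CYP2W1, UGT2B11 and SULT2A1 stood at -0.18, -0.015, -0.18 and -0.020, and CYP4F11 and GSTA4 at 0.043 and 0.018. With 1 library left out the log2 fold change crossed 0 in 16 genes, ranging from -0.19 to 0.017 for AHR, -0.12 to 0.068 for NR1I3, -0.16 to 0.0087 for POR, -0.22 to 0.25 for CYP2J2, -0.13 to 0.31 for CYP2W1, -0.19 to 0.10 for CYP3A5, -0.36 to 0.22 for CYP3A7, -0.10 to 0.048 for CYP4F11, -0.12 to 0.11 for CYP4F3, -0.020 to 0.12 for EPHX1, -0.038 to 0.049 for UGT2B7, -0.16 to 0.28 for UGT2B11, -0.40 to 0.064 for GSTA1, -0.12 to 0.12 for GSTA4, -0.23 to 0.039 for SULT1E1 and -0.070 to 0.20 for SULT2A1. Counted by CPM with no length, 26 of 41 genes were above 1, against 19 per kilobase.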

Other observations

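Genes downstream of the conjugating enzymes were also read. The multidrug efflux pump ABCB1, on chromosome 7, was read at 152, 156 and 157 CPM in VEZF1 WT and at 152, 156 and 157 CPM in VEZF1 2A, with a coefficient of variation of 1.60% over 6 libraries. ABCC2, the canalicular pump for conjugates, was the most abundant of 18 drug transporters per length at 42.3 ± 3.38 (SD, n = 6), with a log2 fold change of -0.03 ± 0.08 (edgeR p = 0.702, exact permutation p = 0.9). Of these 18 genes 14 were tested and 0 reached an unadjusted p under 0.05. The hepatocyte uptake carrier SLCO1B1 was at 0 in every library and SLCO1B3 had 13 counts in all.

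Of 35 other phase I and II enzymes, 26 were tested and 0 reached an unadjusted edgeR p under 0.05, with a median log2 fold change of 0.01. ALDH1A1, a retinaldehyde dehydrogenase, was the most abundant per length at 142 ± 7.87. NQO1, a quinone reductase induced through both NRF2 and AHR, was read at 202, 201 and 216 CPM in VEZF1 WT and at 189, 204 and 210 CPM in VEZF1 2A. AKR1C1, an aldo-keto reductase, was the only gene of this list whose groups did not overlap with VEZF1 WT higher, at 252, 272 and 267 CPM against 244, 245 and 251 CPM (log2 fold change 0.10 ± 0.05, edgeR p = 0.0987, exact permutation p = 0.1), a pattern found in 3.5% of all genes. CES1, the main liver carboxylesterase, was lowest in both replicate 3 libraries, at 58.6, 63.0 and 40.97 CPM in VEZF1 WT and 59.2, 76.2 and 35.8 CPM in VEZF1 2A.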
